A study of Rattus norvegicus with 46 samples.

Results

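Belgrade rats that had received iron in their drinking water for 6 days before they were killed were compared with Belgrade rats kept on a normal diet without added iron. All of these animals carry the b/b genotype on a Wistar background, the loss-of-function mutation in Slc11a2, which encodes the apical iron transporter DMT1, so the fed and the unfed rats share the transport defect. The comparison takes 14 of the 46 arrays of the series, chosen by their titles: villus top and villus bottom of 3 rats fed iron for 6 days and of 4 unfed rats. Belgrade rats fed iron for 3 days (4 rats) and control Wistar rats on a normal diet (4 rats) are given beside them as levels only. The iron solution was described for the Wistar animals as 50 µM ferric ammonium citrate, and the procedures for Belgrade rats were said to match. After an overnight fast, RNA was taken from pooled cryostat sections of a 1-cm duodenal segment, separately for the upper and the lower part of the villus, and hybridised to Affymetrix rat arrays. The age and sex of the Belgrade animals are not given in the sources used here.

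Iron enters the duodenal enterocyte after the reductase Cybrd1 has reduced it at the brush border and Slc11a2 has carried it across the membrane. It leaves through the basolateral exporter Slc40a1 (ferroportin) with the help of the ferroxidase Heph. Low cell iron keeps iron regulatory proteins bound to the Slc11a2 and Tfrc messages and keeps the hypoxia factor HIF-2α active, and both raise the uptake genes. In Belgrade rats most dietary iron does not pass the mutant transporter. The comparison asks how transcripts of the villus differed between rats given 6 days of added oral iron and unfed rats.

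Values are log2 of the deposited intensity plus 44, quantile normalised, and a rat's mean is the average of its top and bottom arrays. Unfed rats 1 and 2 had nearly the same arrays: the robust SD of their difference over 5304 bright probe sets was 0.139 in the top and 0.172 in the bottom, against 0.231 to 0.474 for the other pairs within the 2 groups. They were averaged and counted as 1 sample, so that n = 3 in each group. Median intensities of the 14 arrays ran from 597 to 736. Enterocyte markers averaged 15.77 to 16.00 in the top and 14.11 to 14.82 in the bottom of 6-day rats. In unfed rats they averaged 15.75 to 16.06 in the top and 14.52 to 15.15 in the bottom. They were thus higher in the top than in the bottom of both groups, and present in both parts. Cell cycle genes ran the other way, at 12.33 to 12.74 in the bottom and 9.93 to 9.99 in the top of 6-day rats. In unfed rats they were at 12.01 to 12.32 in the bottom and spread more widely in the top, at 9.43 to 11.11. Paneth cell markers in the top also spread more widely in unfed rats, at 11.30 to 13.49 against 11.95 to 12.13 in 6-day rats.

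Sex-linked transcripts differed between the groups. Xist, the transcript of the inactive X chromosome, was high in 3 of 3 rats fed for 6 days, in 1 of 4 unfed rats (rat 3), in 1 of 4 rats fed for 3 days and in 1 of 4 control Wistar rats. Eif2s3y, a Y-linked transcript, had 5.86, 6.87 and 6.86 in 6-day rats, against 12.74, 12.62, 6.69 and 12.99 in unfed rats 1 to 4. Only unfed rat 3 matches the fed rats in both transcripts. Feeding and sex make-up thus differed together, and their parts in the differences below cannot be told apart. Values against unfed rat 3 alone, or with Xist as a covariate, are given beside several results.

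Almost no transcript passed adjustment between the fed and the unfed rats, which does not show that the others were alike. On the rat mean, 0 of 26517 probe sets passed (percent called 0; limma, Benjamini-Hochberg adjusted p under 0.05, smallest adjusted p = 0.9995), and 1120 (4.22%) had an unadjusted p under 0.05. In the villus top 0 passed (percent called 0), with 1016 (3.83%) at an unadjusted p under 0.05. In the villus bottom 1 passed (0.00377%), the retinoid enzyme gene Lrat, with 1245 (4.7%) at an unadjusted p under 0.05. The median of all differences on the rat mean was -0.01, and the median 95% interval of a probe set, not adjusted for the number tested, reached 0.79 log2 units to each side. Groups of counted samples that do not overlap made up 11.2% of all probe sets on the rat mean, 11.1% in the top and 12.3% in the bottom, and "apart" is used below in this sense. By direction, 5.57% were higher and 5.62% lower on the rat mean, 5.61% higher and 5.54% lower in the top, and 6.08% higher and 6.21% lower in the bottom. Unadjusted p-values under 0.05 were split into 2.02% higher and 2.21% lower on the rat mean, 1.94% higher and 1.89% lower in the top, and 2.38% higher and 2.32% lower in the bottom. Rats fed for 3 days share their unfed controls with the 6-day rats, so levels of the 3 iron times are set side by side with no test.

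Lrat was lower in the villus bottom of rats fed iron for 6 days. The gene encodes lecithin retinol acyltransferase, which esterifies vitamin A so that enterocytes can pack it into chylomicrons. Bottom levels were 6.65, 6.23 and 6.52 in 6-day rats, against 9.79, 9.90, 9.29 and 9.66 in unfed rats 1 to 4. The groups lay far apart, and the 6-day levels were in the dim range, below the 40th percentile of the arrays (8.99), where unfed rats were above it. As deposited, the bottom intensities were 54.4, 24.4 and 43.7 in 6-day rats, against 819, 922.8, 608.3 and 714.9 in unfed rats. The difference was -3.13 ± 0.42 (SE; n = 3 and 3; 95% interval -4.01 to -2.25; limma, adjusted p = 0.01004). Because the 6-day intensities are close to the 44 added before the logarithm, that number sets the size of the difference: it was -3.76 with 11 added (adjusted p = 0.003115) and -2.04 with 176 added (adjusted p = 0.1273), where the call was lost.

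**Figure D1:**
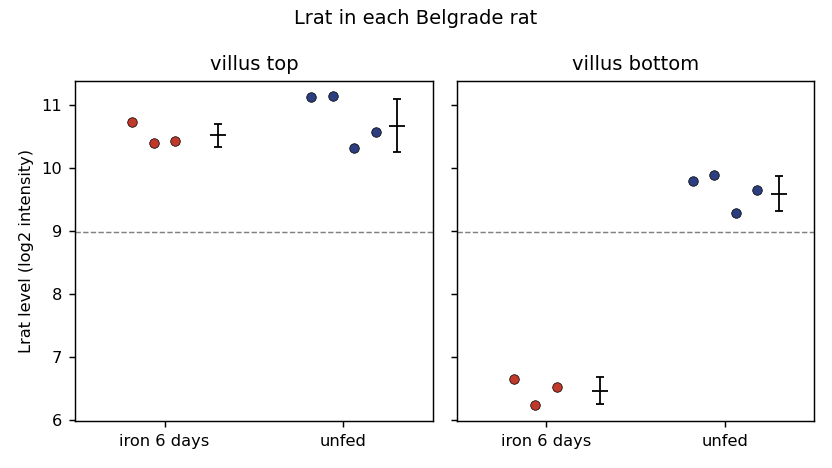
Lrat level (log2 intensity) in each Belgrade rat fed iron for 6 days and each unfed rat, in the villus top and bottom; points are rats, bars the mean ± SD over 3 counted samples, the dashed line the 40th percentile of 8.99. The 3 bottom arrays of 6-day rats lie between 6.23 and 6.65, below every unfed bottom array.

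In the villus top the same gene overlapped between the groups. Levels there were 10.73, 10.40 and 10.43 in 6-day rats, against 11.13, 11.14, 10.31 and 10.57 in unfed rats, a difference of -0.15 (95% interval -1.12 to 0.81; limma, adjusted p = 0.9999). The top minus bottom difference of Lrat was 4.05 ± 0.13 in 6-day rats and 1.08 ± 0.19 in unfed rats (SD, n = 3 each). The test of that difference itself gave 2.98 ± 0.54 (SE) with an unadjusted p = 4.24e-05, the smallest of that comparison, and did not pass adjustment (adjusted p = 0.9675). Bottom levels were 8.86 to 10.05 in rats fed iron for 3 days and averaged 9.98 ± 0.54 (SD) in control Wistar rats, both above every 6-day rat.

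The bottom call for Lrat rested on the spread of all 6 feeding groups and on each 6-day rat. It was lost with any of the 3 left out: the adjusted p was 0.05004 without 6-day rat 1, 0.1095 without rat 2 and 0.06521 without rat 3. Without unfed rat 4 it was 0.11 and without the averaged rats 1 and 2 it was 0.0791, while the difference stayed between -3.29 and -3.01 in all leave-one-out fits. Against unfed rat 3 alone, the unfed rat with high Xist, the difference was -2.82 (adjusted p = 0.2803), and with Xist as a covariate it was -3.18 (adjusted p = 0.05872).

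The 250 bases upstream of the Lrat start are shown because Lrat carries the single call. They come from RefSeq (GRCr8, chr2:170571213-170571462, minus strand), with the TATAA motif in capitals, 28 bases before the start.
Lrat: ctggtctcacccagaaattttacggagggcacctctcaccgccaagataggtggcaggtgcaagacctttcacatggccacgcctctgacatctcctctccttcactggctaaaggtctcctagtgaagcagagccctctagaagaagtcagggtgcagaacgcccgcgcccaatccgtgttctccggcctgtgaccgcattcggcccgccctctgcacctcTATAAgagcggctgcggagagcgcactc
TATAA on either strand was in 24.0% of all 33469 promoter windows of that length, so its presence is a description of the window.

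The following genes of vitamin A handling did not pass. Bottom differences were -0.23 for Rbp2, the enterocyte retinol binding protein, 0.31 for Bco1, which cleaves β-carotene, -0.36 for Dhrs3, which reduces retinal, and -0.33 for Dgat1, which can also esterify retinol. These 4 genes were picked after their values were seen.

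No gene of iron uptake or export passed on the rat mean. Slc11a2 had 16.81, 16.89 and 16.76 in 6-day rats, against 17.07, 17.06, 16.99 and 17.06 in unfed rats. Its groups did not overlap, yet the difference was only -0.22 (95% interval -1.02 to 0.58; limma, adjusted p = 0.9995), and a dimmer Slc11a2 probe set gave -0.59 with overlap. Cybrd1 had 15.95, 16.24 and 15.63 in 6-day rats, against 16.66, 16.69, 16.53 and 16.75 in unfed rats. The groups were apart, with a difference of -0.72 (95% interval -1.67 to 0.24), most of it in the bottom: 14.52, 14.99 and 13.89 in 6-day rats, against 15.81, 15.81, 15.66 and 15.83 in unfed rats. The top levels of Cybrd1 were 17.37 to 17.49 in 6-day rats and 17.41 to 17.67 in unfed rats, which overlapped.

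The exporter and the transferrin receptor did not pass either. Slc40a1 differed by -0.23 on its brightest probe set, and by -0.29 and -0.63 on the others, while Heph differed by -0.19. Tfrc, which takes up transferrin-bound iron from the blood side, had 15.62, 15.38 and 15.46 in 6-day rats, against 15.41, 15.31, 15.96 and 15.60 in unfed rats, which overlapped. With Xist as a covariate Slc11a2 and Heph turned to 0.11 and 0.04. Of the 6 measured genes of apical and cellular iron uptake 4 were lower and 2 higher in 6-day rats, with a median of -0.14, and of 16 genes of export, storage and sensing 9 were lower and 7 higher, also with a median of -0.14. No member of either list had an unadjusted p under 0.05, against 4.22% of all probe sets.

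**Figure D2:**
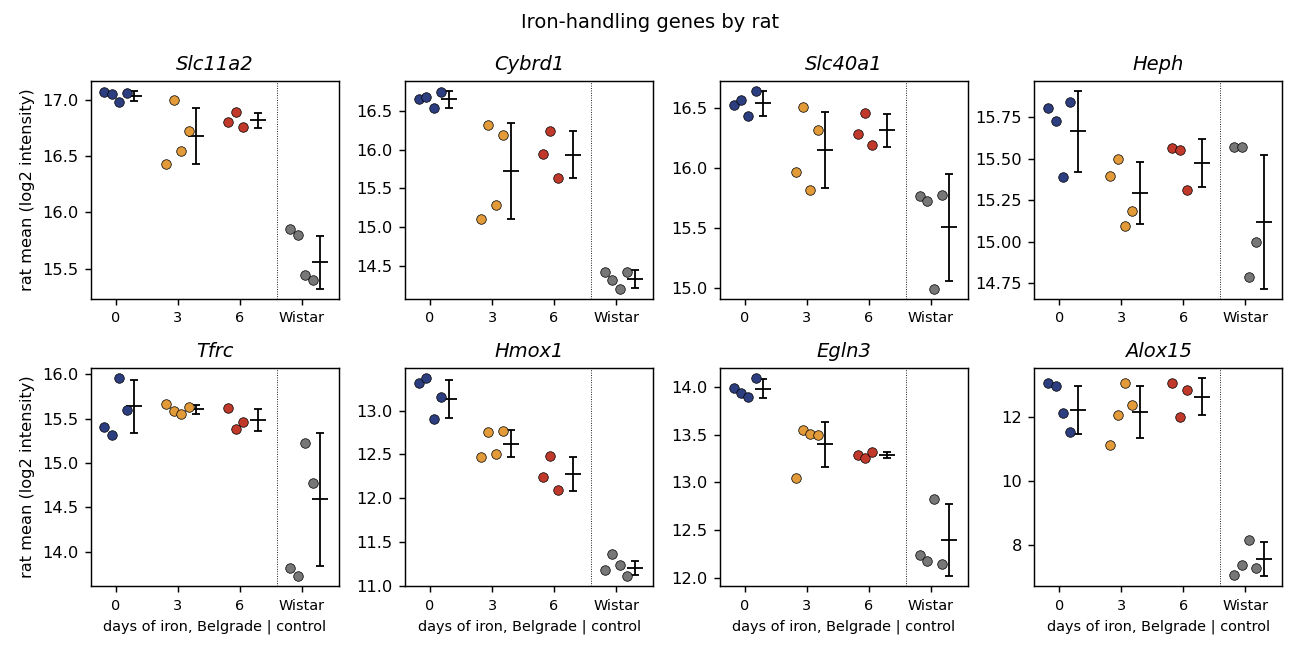
Rat mean level (log2 intensity) of 8 genes in Belgrade rats after 0, 3 and 6 days of iron, and in control Wistar rats; points are rats and bars the mean ± SD over counted samples. Hmox1 and Egln3 of 6-day rats lie below every unfed rat, and Alox15 of all Belgrade groups lies above the control rats.

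Hmox1 and Egln3 had the lowest p-values of the 8 genes followed in every comparison. Hmox1, heme oxygenase, which frees iron from heme, had 12.25, 12.48 and 12.09 in 6-day rats, against 13.31, 13.37, 12.90 and 13.16 in unfed rats. Egln3, a prolyl hydroxylase gene induced by the hypoxia factors, had 13.29, 13.25 and 13.32 in 6-day rats, against 13.98, 13.94, 13.89 and 14.09 in unfed rats. The groups were apart for both, with differences of -0.86 ± 0.35 for Hmox1 (unadjusted p = 0.0207) and -0.69 ± 0.25 for Egln3 (SE; unadjusted p = 0.0108), and neither passed (limma, adjusted p = 0.9995). Across the iron series, Egln3 averaged 13.98 at 0 days, 13.40 at 3 days and 13.29 at 6 days, with control Wistar rats at 12.40, and Hmox1 averaged 13.13, 12.62 and 12.27, with control Wistar rats at 11.20. Alox15, a lipoxygenase, had 13.07, 11.99 and 12.85 in 6-day rats, against 13.05, 12.97, 12.11 and 11.53 in unfed rats, which overlapped, while control Wistar rats averaged 7.55.

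No hypoxia-inducible gene passed. Of 32 measured, 19 were lower and 13 higher in 6-day rats on the rat mean with a median of -0.07, and 8 lower and 1 higher had groups apart, against 5.62% and 5.57% of all probe sets. In the bottom 25 of 32 were lower with a median of -0.21, and in the top 16 were lower and 16 higher with a median of 0.01. On the rat mean 2 lower and 1 higher had an unadjusted p under 0.05 against 2.21% and 2.02% of all probe sets. The lower ones were Egln3 and Bnip3l, a mitophagy receptor gene, at -0.49. The higher one was Angptl4, an inhibitor of lipoprotein lipase, with 12.09, 11.80 and 11.67 in 6-day rats, against 10.29, 10.05, 11.24 and 10.59 in unfed rats. Among 17 copper and zinc genes the copper exporter Atp7a had the smallest p, with 14.09, 14.09 and 13.89 in 6-day rats, against 14.70, 14.84, 14.66 and 14.64 in unfed rats. Its groups were apart at -0.66 (unadjusted p = 0.0246), and the control Wistar mean was 13.11. Of 15 heme genes 8 were lower and 7 higher. Hmox1 alone had an unadjusted p under 0.05, against 2.21% of all probe sets in its direction.

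Circadian clock genes had the list median farthest from 0 on the rat mean among the 28 lists, and no member passed in the fit over all groups. Of 14 measured, 11 were lower and 3 higher in 6-day rats, with a median of -0.61. The median was -0.35 without 6-day rat 1, -0.96 without 6-day rat 2 and -1.06 without 6-day rat 2 and unfed rat 3. At an unadjusted p under 0.05 there were 7 lower and 1 higher, against 2.21% and 2.02% of all probe sets. Dbp, an output transcription factor of the clock, had 9.51, 10.44 and 9.78 in 6-day rats, against 12.53, 12.45, 11.86 and 12.31 in unfed rats. Per3, a period gene, had 7.95, 9.97 and 8.40 in 6-day rats, against 12.81, 12.57, 11.46 and 10.64 in unfed rats. Both were lower in every 6-day rat than in any unfed rat, with differences of -2.31 ± 0.71 for Dbp and -2.82 ± 0.98 for Per3 (SE), and the 6-day mean of Per3 was in the dim range. Tef, a relative of Dbp, differed by -1.56, and Nr1d2 (REV-ERBβ), a clock repressor, by -1.38, both with groups apart.

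The single clock gene higher at an unadjusted p under 0.05 was Bmal1, named here after its value was seen, which encodes the activator that the REV-ERB proteins repress. Its levels were 11.56, 11.04 and 10.88 in 6-day rats, against 10.22, 9.94, 10.17 and 9.77 in unfed rats, a difference of 1.15 (unadjusted p = 0.01). In the fit of the 6-day and unfed rats alone, Dbp reached an adjusted p of 0.03792 by limma. Against unfed rat 3 alone, the list had 9 lower and 5 higher members and a median of -0.52. Across the iron series Dbp averaged 12.22 at 0 days, 11.05 at 3 days and 9.91 at 6 days, and control Wistar rats averaged 10.94. The hour at which each rat was killed is not given in the sources used here, and its part in these values was not tested.

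**Figure D3:**
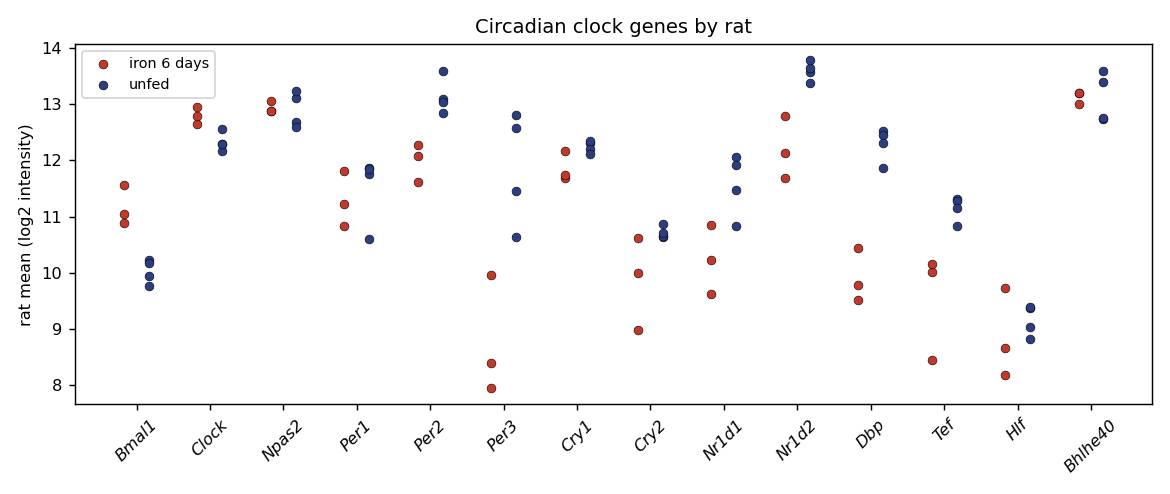
Rat mean level (log2 intensity) of the 14 measured clock genes, with rats fed iron for 6 days on the left of each pair and unfed rats on the right; each point is a rat. Dbp, Per2, Per3, Cry2, Tef and Nr1d2 lie lower, and Bmal1 and Clock higher, in all 3 fed rats than in any unfed rat.

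The clock factors bind the E-box CACGTG, which was sought on both strands in the 250 bases before the start. It was found in 3 of 14 windows of clock genes (those of Bhlhe40, Nr1d1 and Tef), or 21.4%, and in 5.59% of all 33469 windows. These 14 windows belong to 12 of the measured clock genes. The Tef window is shown as the member with the smallest p (GRCr8, chr7:115206577-115206826, plus strand), with the E-box in capitals.
Tef: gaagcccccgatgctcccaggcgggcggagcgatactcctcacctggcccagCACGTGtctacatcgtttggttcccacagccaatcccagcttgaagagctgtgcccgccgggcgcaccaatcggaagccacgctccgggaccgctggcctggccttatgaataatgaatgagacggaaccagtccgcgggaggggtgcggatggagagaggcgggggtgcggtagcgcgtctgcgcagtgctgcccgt
The match describes these letters and says nothing of binding in these rats.

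Cholesterol synthesis genes lay below their unfed levels in 6-day rats, though no member passed. All 20 measured members had a negative difference on the rat mean, from -1.02 to -0.12 with a median of -0.42, against a median of -0.01 over all probe sets. Of these, 4 had an unadjusted p under 0.05, against 2.21% of all probe sets in that direction, and 0 passed. Groups did not overlap for 13 of 20, against 5.62% of all probe sets in that direction. Insig1, the sterol sensor that holds SREBP in the endoplasmic reticulum, had 13.69, 14.30 and 13.76 in 6-day rats, against 15.14, 15.12, 14.54 and 15.14 in unfed rats. Sqle, squalene epoxidase, had 12.84, 13.32 and 12.85 in 6-day rats, against 13.90, 13.74, 13.85 and 14.08 in unfed rats. Both were lower in all 3 fed rats, with differences of -1.02 ± 0.31 for Insig1 and -0.91 ± 0.43 for Sqle (SE).

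The sterol enzymes Msmo1 and Sc5d differed by -0.76 and -0.54, also with groups apart. In the bottom 19 of 20 members were lower with a median of -0.53, and in the top 19 of 20 with a median of -0.38. Against unfed rat 3 alone, all 20 remained lower with a median of -0.42, and with Xist as a covariate all 20 were lower with a median of -0.27. Without unfed rat 4 there were 19 lower and 1 higher with a median of -0.31. A fit with rats of the same number as a block used only the 6-day and unfed rats. It dropped unfed rat 4, counted rats 1 and 2 separately, and gave 18 lower and 2 higher with a median of -0.29. Insig1 averaged 14.94 at 0 days, 14.59 at 3 days and 13.92 at 6 days of iron, and 13.60 in control Wistar rats. Scd2, a stearoyl-CoA desaturase gene outside the list, had 11.28, 10.38 and 11.03 in 6-day rats, against 12.55, 12.90, 12.09 and 12.14 in unfed rats, with groups apart.

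The E-box was found in 2 of 16 windows of cholesterol genes (those of Insig1 and Sc5d), or 12.5%, against 5.59% of all windows. The Insig1 window (GRCr8, chr4:8057770-8058019, minus strand) is shown as the member of the list with the smallest p, with its E-box in capitals.
Insig1: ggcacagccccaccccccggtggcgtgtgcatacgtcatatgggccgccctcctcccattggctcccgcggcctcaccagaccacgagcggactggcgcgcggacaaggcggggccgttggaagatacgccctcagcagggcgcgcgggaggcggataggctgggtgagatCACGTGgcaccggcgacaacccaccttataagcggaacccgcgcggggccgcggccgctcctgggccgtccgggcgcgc
For comparison, the Lrat window held no E-box of these letters.

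**Figure D4:**
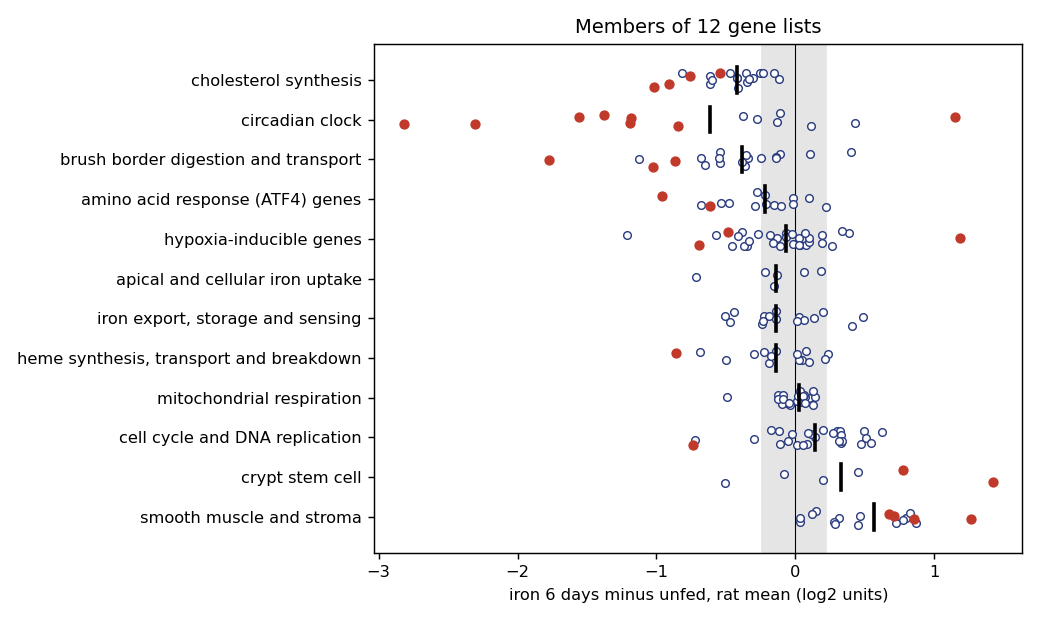
Difference of the rat mean, iron 6 days minus unfed (log2 units), for the members of 12 gene lists; each point is a gene, filled red where its unadjusted p is under 0.05, black bars are list medians and the grey band is the middle 50% of all probe sets. Every cholesterol gene lies below 0 and every smooth muscle and stroma gene above 0.

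Brush border genes had lower medians in 6-day rats, with the larger shift in the villus bottom and no member passing. On the rat mean 17 of 19 were lower with a median of -0.38. Of these, 3 had an unadjusted p under 0.05, against 2.21% of all probe sets in that direction. The median of the list varied with the rats used. It was -0.08 with Xist as a covariate (12 lower and 7 higher), -0.13 against unfed rat 3 alone (11 lower and 8 higher) and -0.13 without the averaged unfed rats 1 and 2 (13 lower and 6 higher). It was -0.63 without unfed rat 3, -0.17 without 6-day rat 3 and -0.89 without 6-day rat 2 and unfed rat 3. Bottom values were lower for 18 of 19 with a median of -0.86, against a median of -0.08 in the top. Slc2a5, the fructose transporter GLUT5, had 11.69, 12.10 and 11.26 in 6-day rats, against 13.54, 13.46, 13.21 and 13.67 in unfed rats. The groups were apart at -1.78 ± 0.63 (SE), and in the fit of the 6-day and unfed rats alone Slc2a5 was called on the rat mean and in the top (limma, adjusted p = 0.03792 and 0.04109). Slc5a1, the glucose transporter SGLT1, differed by -1.02, the amino acid transporter Slc6a20a by -0.87 and the peptidase Mme by -1.13, none passing.

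Markers of other cell types differed beside these bottom values. Stroma and smooth muscle markers averaged 14.62, 13.52 and 13.95 in the bottom of 6-day rats, against 12.72, 12.71, 13.83 and 13.17 in unfed rats, with sums over the 18 genes of 243 to 263 in 6-day rats and 229 to 249 in unfed rats. Crypt stem cell markers averaged 12.73, 12.40 and 13.05 in the bottom of 6-day rats, against 11.61, 11.57, 12.52 and 12.17 in unfed rats. Enterocyte markers averaged 14.31, 14.82 and 14.11 in the bottom of 6-day rats, against 15.13, 15.15, 14.52 and 14.56 in unfed rats. Unfed rat 3 lay nearest to the fed rats in all 3 lists, for enterocyte markers only narrowly (14.52 against 14.56). Its bottom Lrat level was 9.29, the lowest of the unfed rats and above every 6-day rat. In bulk sections fewer cells of a type and less RNA per cell cannot be told apart, and the part of section make-up in the brush border, Lrat and Cybrd1 values was not tested.

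**Figure D5:**
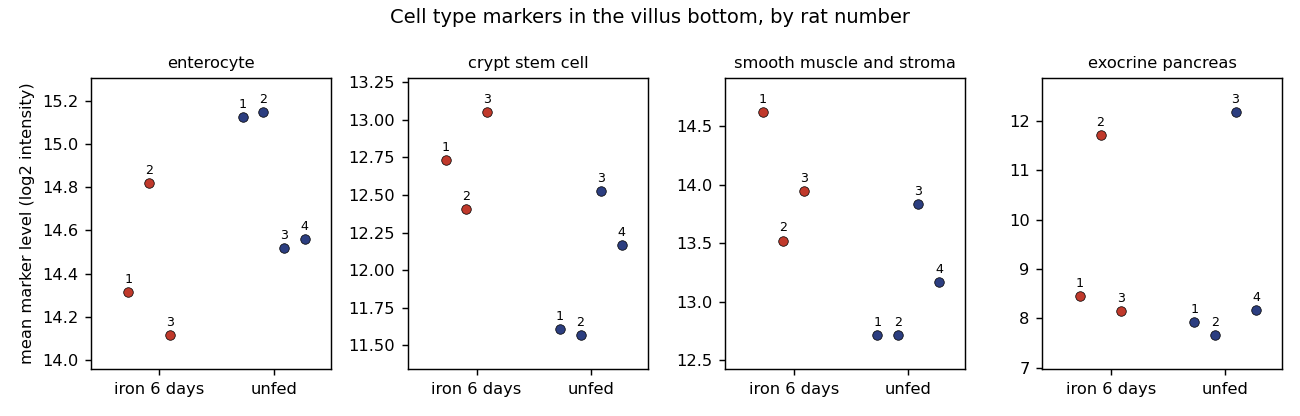
Mean level (log2 intensity) of 4 marker lists in the villus bottom of each rat, numbered as in the labels, with rats fed iron for 6 days on the left and unfed rats on the right. Stroma and crypt markers overlap between the groups only through unfed rat 3, and pancreas markers are high in 6-day rat 2 and unfed rat 3.

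All 18 measured stroma genes had a higher level in 6-day rats on the rat mean, with a median of 0.57 and no member passing. There, 4 had an unadjusted p under 0.05 and 6 had groups apart, against 2.02% and 5.57% of all probe sets in that direction. Col1a2, a chain of type I collagen, had 14.15, 13.65 and 13.90 in 6-day rats, against 12.71, 12.73, 13.20 and 13.20 in unfed rats. Col1a1 differed by 1.26, Col6a2 by 0.67 and the fibronectin gene Fn1 by 0.71. The count depended on rat 1: without 6-day rat 1 there were 14 higher and 4 lower with a median of 0.32, and against unfed rat 3 alone the median was 0.29. None of the 18 markers was in the dim range in any bottom array of the 2 groups.

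Of 27 cell cycle genes 25 were higher in the bottom with a median of 0.35, 8 with an unadjusted p under 0.05, against 2.38% of all probe sets, while 14 of 27 were higher in the top with a median of 0.01. The lowest bottom difference of any member was -0.13. On the rat mean 19 of 27 were higher and 8 lower with a median of 0.15. There Pcna, the replication clamp gene, had the smallest p of the list and was lower, with 15.58, 15.10 and 15.11 in 6-day rats, against 15.74, 15.73, 16.06 and 16.20 in unfed rats. Of 6 crypt stem cell genes, Axin2, a Wnt feedback gene, had 12.98, 12.25 and 13.04 in 6-day rats, against 11.73, 11.83, 12.19 and 11.99 in unfed rats. Ascl2, a stem cell transcription factor, differed by 1.42 on the rat mean, and Lgr5 by -0.50. Of the 6 genes 4 were higher and 2 lower on the rat mean, and all 6 were higher in the bottom, by 0.24 to 1.06.

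Pancreas markers were uneven between rats of both groups. They averaged 8.46, 11.71 and 8.15 in the bottom of 6-day rats, against 7.93, 7.66, 12.18 and 8.18 in unfed rats, and 0 of 16 were dim in 6-day rat 2 and in unfed rat 3. With both of those rats left out, all 20 cholesterol genes and 11 of 14 clock genes were lower, all 18 stroma genes were higher, and Lrat differed by -3.17 in the bottom (adjusted p = 0.2845).

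No member of the remaining lists passed. Amino acid response genes were lower for 13 of 15 with a median of -0.22 on the rat mean. In the top 14 of 15 were lower with a median of -0.50, and 4 of them had groups apart, against 5.54% of all probe sets in that direction. In the bottom 7 were lower and 8 higher with a median of 0.07. Chac1, a glutathione-degrading enzyme of that response, had 9.60, 10.18 and 9.93 in 6-day rats, against 10.69, 10.62, 11.21 and 10.71 in unfed rats, with groups apart at -0.96. The response factor gene Ddit3 (CHOP) differed by -0.61. Of 22 antigen presentation and interferon genes 18 were lower with a median of -0.18. None had an unadjusted p under 0.05, against 4.22% of all probe sets. Lipid absorption genes had a median of -0.23 over 19, with Abcg5, a sterol efflux pump, at -1.68. NRF2 targets had a median of -0.14 over 19, with the glutathione synthesis gene Gclc at -0.75. Xenobiotic genes had a median of -0.18 over 9, with the export pump Abcc2 at -1.59. Mitochondrial respiration genes had a median of 0.03 over 22, with 0 at an unadjusted p under 0.05, against 4.22% of all probe sets. Of 9 mast cell genes 6 were lower and 3 higher with a median of -0.28, from the protease Mcpt4 at -1.38 and its relative Mcpt9 at -1.03 to the tryptase Tpsb2 at 1.27 (2.00 in the bottom), whose groups were apart. Medians were 0.12 for 19 immediate early and heat shock genes, -0.14 for 9 enterocyte, 0.23 for 6 Paneth, -0.04 for 8 goblet, -0.14 for 11 enteroendocrine, 0.02 for 5 Brunner's gland and gastric, -0.13 for 15 lymphocyte, -0.24 for 16 pancreas and 0.05 for 4 red blood cell genes.

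The genes with the smallest p on the rat mean, among those with groups apart and a difference of at least 1, did not pass and were mostly dim. On the higher side stood the semaphorin receptor gene Plxnb1 (1.84), the splicing factor gene U2af2 (1.37), Mpp3 (1.91), Gpr162 (1.44), the B cell kinase gene Blk (1.25), the repressor gene Rest (1.61), the metallothionein Mt3 (1.47), the heat shock factor Hsf2 (1.55), Bcl9 (1.60), Matcap1 (1.26), the elastin gene Eln (1.89) and Medag (1.79). By group means, U2af2 was the single member of these 12 above the dim range in both groups, with 11.17, 10.77 and 10.64 in 6-day rats, against 8.91, 9.15, 9.47 and 9.97 in unfed rats. On the lower side, after Lrat (-1.64) and Tef, stood Aagab (-1.61), Dennd2c (-1.35), LOC102554603 (-1.75), Mpped1 (-1.44), Ccdc181 (-1.59), Akr1c19 (-2.17), the keratin gene Krt6c (-1.31), the Mediator subunit gene Med1 (-1.44), Scd2 (-1.42) and the potassium channel subunit gene Kcns3 (-1.29). Akr1c19, an aldo-keto reductase gene, had 12.06, 12.49 and 15.04 in 6-day rats, against 15.16, 15.14, 15.44 and 15.51 in unfed rats, so that 6-day rat 3 lay near the unfed level.

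In the villus top the genes so chosen included Nrg1, a ligand of ERBB receptors, at 2.26, and Prss22, a serine protease gene, at 2.69. Nrg1 averaged 11.98 ± 0.64 in 6-day rats and 9.72 ± 0.40 in unfed rats, and Prss22 averaged 12.20 ± 0.57 in 6-day rats and 9.51 ± 0.94 in unfed rats (SD, n = 3 each). Adamtsl5 differed by 1.47, Tmx4 by 2.99, Plxnb1 by 2.81 and Gpc2, a glypican gene, by 2.41. Lower in the top were Aagab (-2.70), Dennd2c (-2.55), Czib (-1.74), Ccdc181 (-2.91), Zfp770 (-2.59) and the integrin gene Itga7 (-2.19), each dim in the 6-day rats. In the bottom the higher genes were Tmpo (2.50), Scube1 (3.10), P2ry6 (1.71), Miox (2.19), Zfp668 (1.93) and Mob1b (2.38), each dim in the unfed rats. Lower in the bottom after Lrat were Tpbgl (-2.36), Lce3b (-1.56), Nr1d2 (-1.81), Glyctk (-1.82) and Hint3 (-1.15). Nr1d2 averaged 11.51 ± 0.63 in the bottom of 6-day rats and 13.32 ± 0.12 in unfed rats (SD, n = 3 each).

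The top minus bottom value of each rat was also compared between fed and unfed rats. Of 26517 probe sets 0 passed (percent called 0, limma, smallest adjusted p = 0.9675), with 988 (3.73%) at an unadjusted p under 0.05. After Lrat, the smallest p-values were those of Dennd2c (-2.40), Nr2f6 (4.35), Il13ra2 (3.45) and Flywch2 (3.44), given as top difference minus bottom difference. Il13ra2 and Nr2f6 were dim in both villus parts of both groups. Among all probe sets 1.8% were higher and 1.93% lower at an unadjusted p under 0.05, and 6.31% higher and 5.33% lower had groups apart. A p that misses the threshold does not show that the top and bottom differences were alike.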

How the data were processed

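The authors' deposited intensity values of 31099 probe sets were used. Their summary algorithm is not given in the sources used here, and the 14 arrays share 1 trimmed mean. Here 57 control probe sets were removed, 44 was added, log2 was taken and the 44 villus arrays were quantile normalised. Probe sets above the 40th percentile on at least 3 arrays (26517) were tested; 20826 of 31042 have 1 gene symbol. Limma 3.58.1 (R 4.3.3) fitted 6 feeding groups of 22 rats, near-identical rats averaged (20 samples), with an intensity trend and Benjamini-Hochberg adjustment. On data simulated with normal noise and the spreads of the rat mean, 50 probe sets were changed at each of 0.5, 1, 2 and 3 log2 units. The fit called 28% of changes of 1 log2 unit and 56% of 2 log2 units. The adjusted p depends on how many probe sets change, so these shares need not hold where few do. Arrays have no count depth, and their number limits the precision. P-values measure the spread between these samples, which may be technical.

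The members, the 28 gene lists and the tests were chosen with earlier results of these data known. Named genes were 8 iron genes, up to 12 a direction on the rat mean and 6 in the top and bottom (called, or otherwise non-overlapping with a difference of at least 1 by smallest p), 5 by segment difference and up to 4 a list. Alternatives changed the samples fitted, pseudocount, scaling, filter and trend, added Xist as a covariate, or left out samples. Promoter windows are RefSeq's (GRCr8), with motifs sought on both strands.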

Additional observations from a re-analysis of the deposited data

Results flagged for a closer look

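Egln3 among Belgrade rats fed iron for 3 days had 1 rat apart from the other 3, with levels of 13.04, 13.50, 13.50 and 13.54, and the gap was 0.902 of the range, past Dixon's limit for 4 samples. Of the 11 sets of 4 values tested this was the single one, and chance gives about 1 in 20. The 6-day and unfed groups count 3 samples each and were not tested in this way.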

How the results depend on the processing

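The count on the rat mean was 2 (Slc2a5 and Dbp, lower) with the 6-day and unfed rats alone and 1 (Slc2a5) with the 3 Belgrade groups, against 0. The top then gave 1 (Slc2a5) in the first fit, the bottom 0 in both, and the segment difference 2 in the second (Bmp8a, 1.99, and Prrx1, -3.38). Unadjusted counts on the rat mean were 1589 and 1469 in these fits and 1390 with Wistar iron-repleted rat 3 left out of the shared spread, against 1120, and the cause was not tested. The bottom gave 0 with the larger pseudocount of 176, with Xist as a covariate and, as alternatives chosen after seeing the data, against unfed rat 3 alone and without 6-day rat 2 and unfed rat 3; the top gave 1 against unfed rat 3 alone, a probe set with no symbol. Leaving out each sample in turn gave 0 on the rat mean, 0 to 1 in the top, 0 to 1 in the bottom and 0 to 1 for the segment difference; without the averaged unfed rats 1 and 2 the single bottom call was Tmpo, not Lrat. The replicate block was fitted on the 6-day and unfed rats alone, dropped unfed rat 4 and counted rats 1 and 2 separately, so several settings changed at once. It called 71, 47 and 57 probe sets on the rat mean, in the top and in the bottom, and 0 for the segment difference. Same-numbered rats correlated at 0.01, 0.01 and 0.03 and share only a number. Of these, 2 of 3 matched best with their own number, and the cause of the higher counts was not tested.

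Lrat in the bottom kept its direction in all 23 alternatives (-3.76 to -2.04) and its call in 11. It lost the call at an adjusted p of 0.3869 and 0.1992 in the 2 Belgrade-only fits, 0.1273 with the larger pseudocount and 0.07655 with the block. In the top, Lrat turned to 0.23 with Xist as a covariate, 0.21 against unfed rat 3, and ranged from -0.34 to 0.077 as samples were left out in turn, the highest without unfed rats 1 and 2. On the rat mean, Slc11a2 turned to 0.11 and Heph to 0.042 with Xist as a covariate, and Tfrc ranged from -0.29 to 0.0072 as samples were left out in turn, the highest without unfed rat 3. Of 965 differences of named genes under alternatives, 959 kept their sign.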
